A study of Mus musculus with 2 samples.

Results

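The 7 genes described here encode costimulatory members of the tumour necrosis factor (TNF) receptor superfamily and the proteins that work beside them in regulatory T (Treg) cells. They are Tnfrsf4 (OX40), Tnfrsf18 (GITR), Tnfrsf1b (TNFR2), Tnfrsf9 (CD137), Cd27, Traf1 and Fas (CD95), taken by symbol from the 32285 genes listed in both libraries, and all 7 had counts in both. The study compared splenic Treg cells of mice after an induced loss of CD25 (Il2ra, a chain of the interleukin-2 receptor), by single-cell RNA sequencing of droplets with a 3′ tag. CD25KO cells carried CD25FL/FL alleles and CD25WT cells CD25WT/WT alleles. Mice of both genotypes were tdTomato+/+ and Foxp3eGFPCretERT2+/+, so that the tamoxifen-activated Cre recombinase is driven from the Foxp3 locus, and both received tamoxifen at 2 mg/kg into the peritoneum for 5 days. At 10 days after induction the splenocytes were collected, with 2 spleens pooled into the 1 library of each genotype. Live cells were sorted on CD4, GFP and tdTomato, and CD25KO cells also on a low CD25 signal, so the sort gate differs between the groups together with the genotype and cannot be told apart from it. The sources used here do not give the age of the mice.

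TNF receptor superfamily costimulators are surface receptors that bind trimeric ligands on antigen-presenting cells or other lymphocytes. Their cytoplasmic tails recruit TRAF adaptor proteins, which activate the NF-kB pathways and support survival, division and cytokine release, whereas Fas carries a death domain and can trigger apoptosis. Treg cells are known for carrying OX40, GITR, TNFR2 and CD137 at higher density than resting conventional T cells, and these receptors are linked to the activated state of Treg cells.

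Of the 7 genes, 4 lie on mouse chromosome 4 in the mm10 build (GENCODE M21 annotation). Tnfrsf4 (ENSMUSG00000029075) spans chr4:156013843-156016612 on the plus strand. Tnfrsf18 (ENSMUSG00000041954) spans chr4:156026164-156028895 on the same strand, with 9551 bases between the end of Tnfrsf4 and its start. Tnfrsf1b (ENSMUSG00000028599) lies at chr4:145213463-145246870 on the minus strand and Tnfrsf9 (ENSMUSG00000028965) at chr4:150914562-150946102 on the plus strand. Cd27 (ENSMUSG00000030336) is at chr6:125232622-125237010 on the minus strand, Traf1 (ENSMUSG00000026875) at chr2:34941750-34961772 on the minus strand and Fas (ENSMUSG00000024778) at chr19:34290666-34327772 on the plus strand. A gene on the opposite strand covers the 3′ end of 3 members, Gm16008 over Tnfrsf18, Camta1 over Tnfrsf9 and Vamp1 over Cd27, and the sources used here do not give the strand setting of the counting, so reads of each pair cannot be told apart if strand was ignored. Gm16008 was counted at 29 UMIs (unique molecular identifiers, 1 per captured transcript) in CD25KO and 34 in CD25WT, Camta1 at 611 and 512, and Vamp1 at 576 and 468.

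The 250 bases upstream of the RefSeq transcription start (RefSeq tables, build GRCm38.p6) were searched on both strands for the NF-kB consensus, which the TRAF-driven pathways act on, and for TTCNNNGAA, the element bound by STAT factors such as STAT5 downstream of the interleukin-2 receptor. All 7 members matched the table, with 8 windows because Tnfrsf9 has 2 starts. The NF-kB consensus occurred in 1 of 7 members, Tnfrsf9, and in 7.25% of the 32851 promoter windows of the same length. The STAT element occurred in 4 of 7 members, Tnfrsf18, Tnfrsf1b, Tnfrsf9 and Fas, and in 7.02% of all windows. Tnfrsf4, Cd27 and Traf1 held neither sequence in these windows. The stretches below are those of 3 members with the STAT element, in capitals, beginning 181 bases before the start in Tnfrsf1b, 136 before the downstream start of Tnfrsf9 and 93 before the start of Fas; the element of Tnfrsf18 lies in an annotated exon and is not printed. For Tnfrsf9 the print ends where an annotated exon begins, and its NF-kB match, 2 overlapping copies in capitals beginning 43 bases before the start, is given as a short stretch. The Tnfrsf4 window is given beside them because, of the 3 members with neither match, Tnfrsf4 differed most between the libraries.
Tnfrsf1b, chr4:145246871-145247120, minus strand: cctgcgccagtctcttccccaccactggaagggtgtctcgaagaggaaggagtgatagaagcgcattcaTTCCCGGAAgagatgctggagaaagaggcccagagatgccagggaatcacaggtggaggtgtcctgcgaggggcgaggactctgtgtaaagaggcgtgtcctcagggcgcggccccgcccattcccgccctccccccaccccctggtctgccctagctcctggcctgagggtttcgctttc
Fas, chr19:34290409-34290658, plus strand: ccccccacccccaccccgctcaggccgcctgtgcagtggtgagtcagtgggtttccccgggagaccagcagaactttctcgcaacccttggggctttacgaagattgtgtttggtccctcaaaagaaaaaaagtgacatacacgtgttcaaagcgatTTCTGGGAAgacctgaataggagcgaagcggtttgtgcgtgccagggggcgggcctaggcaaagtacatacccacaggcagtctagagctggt
Tnfrsf9, chr4:150927749-150927917, plus strand: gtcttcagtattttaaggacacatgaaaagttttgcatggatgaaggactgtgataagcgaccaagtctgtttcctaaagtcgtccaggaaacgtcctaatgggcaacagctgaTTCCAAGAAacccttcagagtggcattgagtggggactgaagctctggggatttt
Tnfrsf9 NF-kB match, chr4:150927947-150927975, plus strand: agagcagctGGGGATTTCCCaggaggccc
Tnfrsf4, chr4:156013445-156013694, plus strand: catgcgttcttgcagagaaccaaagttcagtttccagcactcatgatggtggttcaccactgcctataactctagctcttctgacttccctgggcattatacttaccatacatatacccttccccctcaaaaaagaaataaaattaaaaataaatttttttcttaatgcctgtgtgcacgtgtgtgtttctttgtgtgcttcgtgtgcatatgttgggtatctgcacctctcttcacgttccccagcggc
These matches describe letters and were not tested as binding sites.

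A cell was kept if it had 500 or more detected genes and no more than 10% mitochondrial UMIs, which left 6952 of 7530 CD25KO barcodes and 6110 of 6620 CD25WT barcodes. The kept cells held 35726778 UMIs in CD25KO and 35436738 in CD25WT, with medians of 4150 and 5229 UMIs per cell. Ribosomal protein genes took 31.1% of UMIs in CD25KO and 39.3% in CD25WT. The libraries shared 107 barcode sequences, and 26 of these were kept in both. Il2ra, which encodes CD25, stood at 32.4 CPM (counts per 1000000 UMIs) in CD25KO and 125 CPM in CD25WT, a log2 ratio of −1.95 (95% interval −2.04 to −1.85). The labels do not say which exons are deleted, so a 3′ tag outside them would not check the deletion. Of the Treg identity genes, Foxp3 stood at 21.6 CPM in CD25KO and 34.1 CPM in CD25WT, Ikzf2 (Helios) at 1611 and 737 CPM, and Ctla4 at 151 and 118 CPM. Gpr83 was lower, at 17.7 CPM in CD25KO and 49.6 CPM in CD25WT, a log2 ratio of −1.49 (−1.62 to −1.35). Izumo1r stood at 708 and 505 CPM. Markers of other lineages were also counted in the T-cell clusters: the 8 B-cell genes summed to 534 CPM in CD25KO and 267 CPM in CD25WT and over clusters between 181 and 910 CPM. The erythroid genes summed to 140.0 CPM in CD25KO and 200.5 CPM in CD25WT, the myeloid genes to 148 and 108 CPM and the plasma-cell genes to 55.9 and 43.8 CPM. The CD8 genes summed to 13.6 and 11.6 CPM, the natural killer genes to 5.68 and 3.01 CPM with Klra8 at 0 in both, and the platelet genes to under 1 CPM in each library. The part of these cells' RNA in the results was not tested, except that leaving out the 2 clusters of other lineages gave a log2 ratio of 1.21 for Tnfrsf4 and 1.26 for Tnfrsf1b. With 1 library per group there is no replicate check and no test anywhere below: every interval is an exact 95% interval that covers counting error only.

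Across all kept cells, 4 of the 7 genes stood 1.5-fold or more above CD25WT in CD25KO, and 0 stood 1.5-fold or more below. The same held, of the 7129 genes that averaged 10 CPM or more, for 10.4% above and 1.5% below, and the median log2 ratio was 0.21. With trimmed-mean (TMM) scaling, which lowers every log2 ratio by 0.22, 2 of the 7 genes (Tnfrsf4 and Tnfrsf1b) stayed past 1.5-fold, beside 5.56% of genes, and the same 2 with median-of-ratios scaling, beside 5.58%.

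Tnfrsf4 encodes OX40, the receptor of the OX40 ligand, and had 355 CPM in CD25KO and 154 CPM in CD25WT, counted from 12684 and 5443 UMIs. Its log2 ratio was 1.21 (1.16 to 1.25), and the intervals of the levels lay far apart, at 349 to 361 CPM in CD25KO and 150 to 158 CPM in CD25WT. Tnfrsf18 encodes GITR and had 240.0 CPM in CD25KO and 147 CPM in CD25WT, a log2 ratio of 0.71 (0.66 to 0.76). Tnfrsf1b encodes TNFR2, the TNF receptor without a death domain. It had 53.0 CPM in CD25KO and 22.3 CPM in CD25WT, a log2 ratio of 1.25 (1.13 to 1.37), beside that of Tnfrsf4 the only member ratio past 2-fold. Of the 7129 genes that averaged 10 CPM or more, 3.46% were 2-fold or more higher in CD25KO. With TMM factors Tnfrsf4 stood at 0.98, under 2-fold, and Tnfrsf1b at 1.02.

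Tnfrsf9 encodes CD137, which T cells display after antigen receptor stimulation. It had 62.9 CPM in CD25KO and 36.0 CPM in CD25WT, a log2 ratio of 0.80 (0.70 to 0.90). Cd27, the receptor of CD70 and already present on resting T cells, had 283 CPM in CD25KO and 264 CPM in CD25WT. Its log2 ratio of 0.10 (0.06 to 0.14) is below the median of all genes and its sign turns with the scaling, to −0.13 with TMM factors, so no direction is given for it. Traf1, an adaptor that binds TRAF2 under several of these receptors, had 152 CPM in CD25KO and 107 CPM in CD25WT, a log2 ratio of 0.51 (0.45 to 0.57). Fas, the death receptor of the set, had 59.3 CPM in CD25KO and 47.5 CPM in CD25WT, a log2 ratio of 0.32 (0.23 to 0.41), which TMM scaling brings to 0.10.

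**Figure D1:**
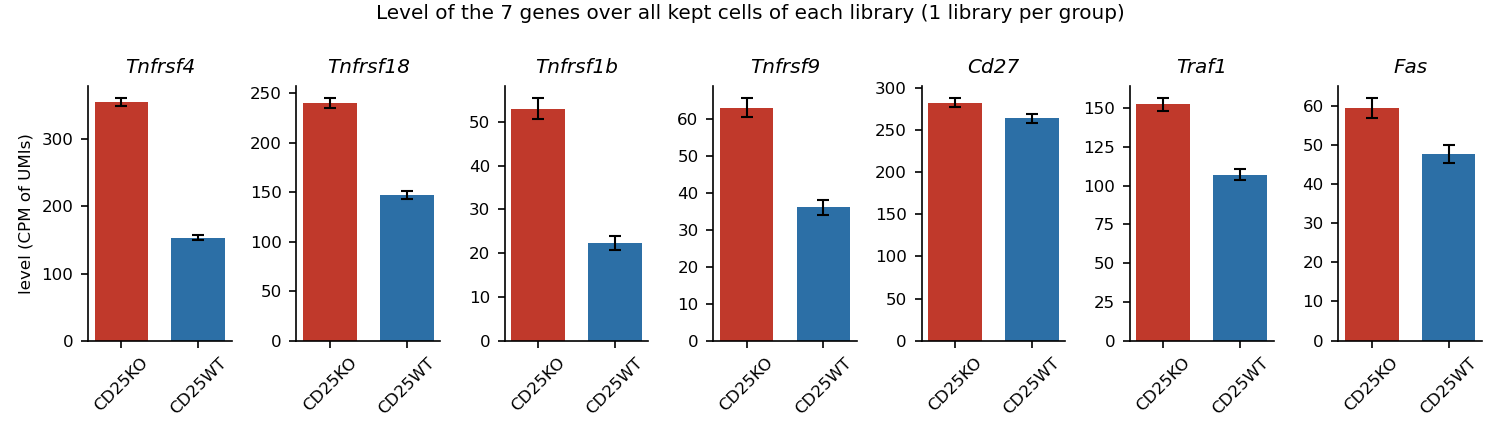
Level of each of the 7 genes in CPM over all kept cells of the CD25KO library (red, left) and the CD25WT library (blue, right), each bar 1 library with its exact 95% counting interval and each panel with its own axis. Tnfrsf4 (355 and 154 CPM) and Tnfrsf1b (53.0 and 22.3 CPM) lie widest apart, and Cd27 (283 and 264 CPM) closest, with a sign that turns under TMM scaling.

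The ratios were also taken in subsets of cells. Against the 3990 CD25WT cells without an Il2ra UMI, the log2 ratio of Tnfrsf4 was 1.28, that of Tnfrsf1b 1.16, of Tnfrsf9 0.81 and of Tnfrsf18 0.73. Restricted to cells with a Foxp3 UMI, 690 in CD25KO and 971 in CD25WT, the log2 ratio was 1.49 for Tnfrsf4, 1.66 for Tnfrsf1b, 1.44 for Tnfrsf9 and 1.03 for Tnfrsf18. In the same cells it was 0.55 for Traf1, 0.22 for Cd27 and 0.11 for Fas, the last below its 0.32 over all cells.

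To follow the genes across Treg states, cells of both libraries were clustered together without the 7 genes, the other genes of the pathway and Il2ra. Each of the 16 clusters is called by its 2 leading genes, with a state name only where markers of that state led it. There were 14 clusters of T cells: Ly6c1/Igfbp4 and 1 more were central-like, Lilrb4a/Ccl5, S100a4/Rora and Ifitm1/Ccr2 effector-like, Ccl1/Egr2 and Egr3/Nr4a1 recently stimulated-like, Ifit3/Ifit1 interferon-response-like, Sostdc1/Il4 follicular regulatory-like and Hist1h1b/Pclaf cycling-like. Capn3/H2-Oa, Naip5/Ttn, Gbp2b/Prg4 and Lrrc32/Gsta4 stayed unnamed, with 27.4% of the kept cells in CD25KO and 26.6% in CD25WT. The other 2 clusters, of B-cell and erythroid genes and of myeloid genes, held 1.44% of cells in CD25KO and 1.83% in CD25WT. Levels within a cluster are given for a library with at least 50 cells there, so in 12 clusters of CD25KO and 14 of CD25WT.

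Tnfrsf4 varied widely between clusters. It was highest in the recently stimulated-like Ccl1/Egr2 cluster, at 943 CPM in CD25KO (792 cells) and 540 CPM in CD25WT (406 cells), and next in the effector-like Lilrb4a/Ccl5 cluster, at 659 CPM in CD25KO (1232 cells) and 357 CPM in CD25WT (138 cells). In CD25KO it then stepped down through Sostdc1/Il4 at 363 CPM and Naip5/Ttn at 265 CPM, with intervals apart at each step, and ended at 55.2 CPM in Ly6c1/Igfbp4 and 46.8 CPM in Gbp2b/Prg4, which overlapped. The highest cluster stood 20.2-fold above the lowest in CD25KO and 11.7-fold in CD25WT, where Ifitm1/Ccr2 was lowest at 46.0 CPM. By interval, neither lowest level was apart from that of the B-cell and erythroid cluster, 61.0 CPM in CD25KO and 49.3 CPM in CD25WT. The follicular regulatory-like Sostdc1/Il4 cluster was the third in CD25WT too, at 277 CPM, but there its interval met that of Naip5/Ttn at 226 CPM.

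Tnfrsf18 followed another order, led in both libraries by Lilrb4a/Ccl5, at 514 CPM in CD25KO and 370 CPM in CD25WT. Ccl1/Egr2 came next in CD25KO at 317 CPM, while in CD25WT it stood below Lilrb4a/Ccl5, Sostdc1/Il4 and Naip5/Ttn at 223 CPM, with an interval that overlapped that of Naip5/Ttn above it. The lowest levels were 76.5 CPM in Ly6c1/Igfbp4 for CD25KO and 105 CPM in Ifit3/Ifit1 for CD25WT, so that its range was narrower than that of its chromosomal neighbour Tnfrsf4, 6.71-fold in CD25KO and 3.52-fold in CD25WT. In CD25WT the 10 lowest clusters, Lrrc32/Gsta4 down to Ifit3/Ifit1, followed each other without a gap between neighbouring intervals.

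Tnfrsf1b was also highest in Lilrb4a/Ccl5, at 120 CPM in CD25KO and 101 CPM in CD25WT, and lowest in the central-like Ly6c1/Igfbp4 cluster, at 11.6 CPM in CD25KO and 6.56 CPM in CD25WT. In CD25KO, Ccl1/Egr2 stood between Lilrb4a/Ccl5 and all others at 82.5 CPM, apart from both neighbours. In CD25WT, Ccl1/Egr2 had 48.6 CPM and overlapped Naip5/Ttn at 55.9 CPM.

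Tnfrsf9 marked the Ccl1/Egr2 cluster, with 199 CPM in CD25KO and 218 CPM in CD25WT, apart from the next cluster Lilrb4a/Ccl5 at 111 CPM in CD25KO and 79.8 CPM in CD25WT. It was close to absent from the Gbp2b/Prg4 cluster, with 0 UMIs in 157 CD25KO cells and 1 UMI in 425 CD25WT cells, although Tnfrsf4 was counted there at 46.8 CPM in CD25KO and 64.7 CPM in CD25WT. The intervals of these Tnfrsf4 levels overlapped those of the B-cell and erythroid cluster. There Tnfrsf4 had 61.0 CPM (38.2 to 92.3) in CD25KO and 49.3 CPM (31.6 to 73.3) in CD25WT. Against the level that 3 UMIs would give in Gbp2b/Prg4, Tnfrsf9 in Ccl1/Egr2 was at least 45.5-fold higher in CD25KO.

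Cd27 was highest in the follicular regulatory-like Sostdc1/Il4 cluster, at 436 CPM in CD25KO and 513 CPM in CD25WT. The lowest levels were 99.7 CPM in the cycling-like cluster for CD25KO and 70.6 CPM in the effector-like Ifitm1/Ccr2 cluster for CD25WT. In CD25KO the clusters that followed Sostdc1/Il4, Lilrb4a/Ccl5 at 373 CPM down to S100a4/Rora at 235 CPM, overlapped neighbour by neighbour. The central-like cluster Ly6c1/Igfbp4, where Tnfrsf4 and Tnfrsf9 were near their lowest levels, held Cd27 at 312 CPM in CD25KO and at 244 CPM in CD25WT.

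Traf1 varied 3.25-fold in CD25KO, between 220 CPM in Lilrb4a/Ccl5 and 67.6 CPM in the cycling-like cluster, and 3.07-fold in CD25WT, between 231 CPM in Egr3/Nr4a1 and 75.2 CPM in the cycling-like cluster. Only 2 steps of its CD25KO order and 1 of its CD25WT order had intervals apart. For Fas no neighbouring clusters were apart in either library. Its levels ran between 90.7 CPM in Ccl1/Egr2 and 29.2 CPM in Gbp2b/Prg4 in CD25KO, and between 83.0 CPM in Sostdc1/Il4 and 16.7 CPM in Egr3/Nr4a1 in CD25WT.

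**Figure D2:**
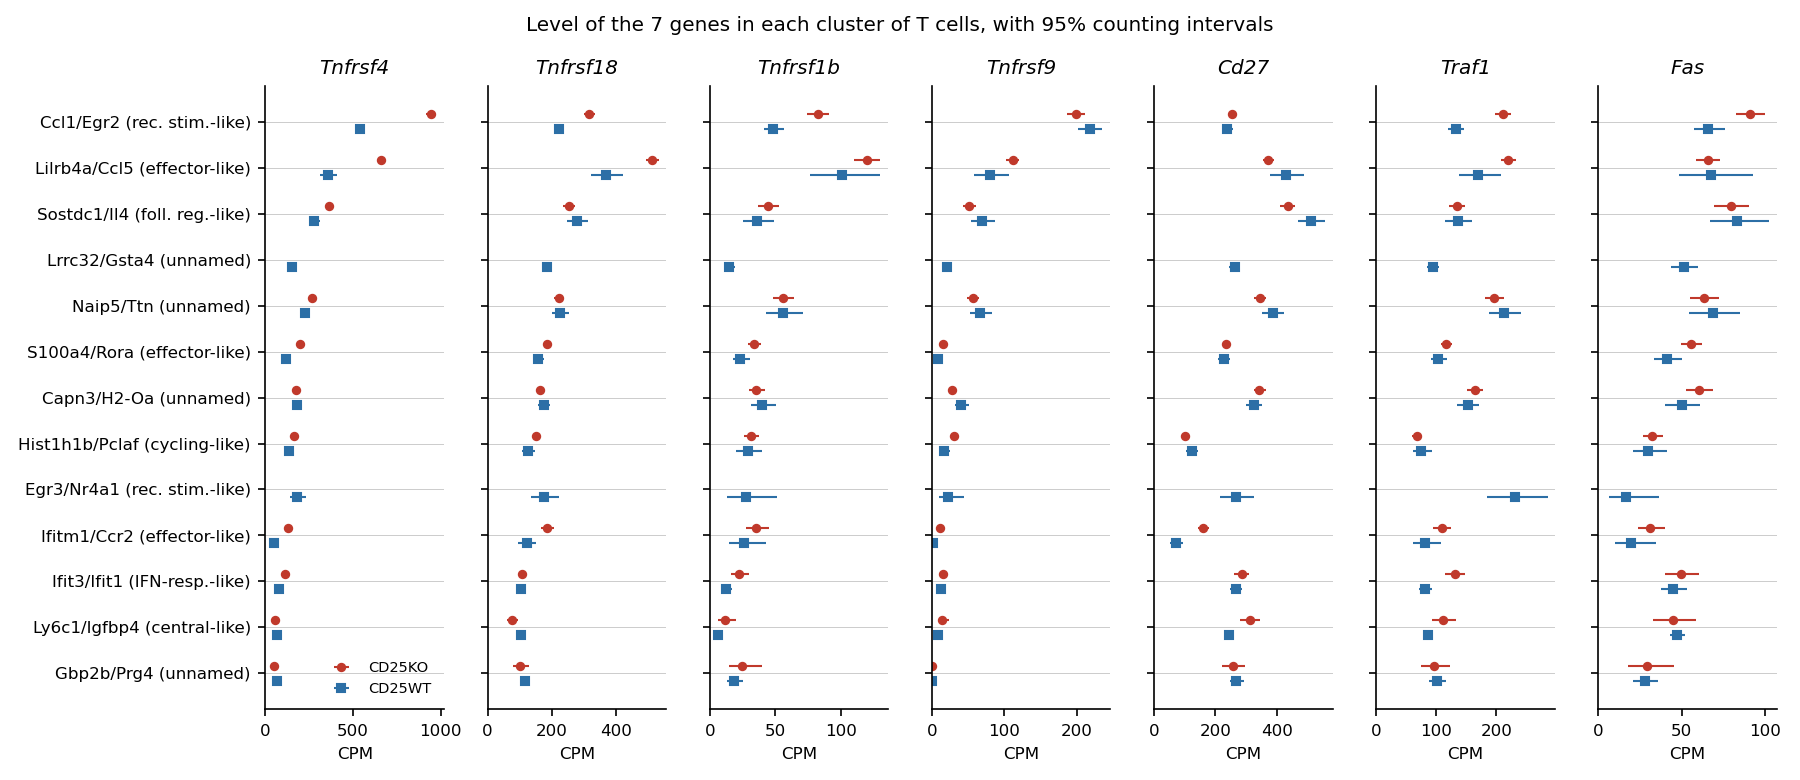
Level of each gene (CPM, horizontal axis of each panel) in 13 of the 14 T-cell clusters, ordered by Tnfrsf4 in CD25KO, for CD25KO (red circles) and CD25WT (blue squares) with exact 95% counting intervals; a library with under 50 cells in a cluster has no point. Tnfrsf4 reaches 943 and 540 CPM in Ccl1/Egr2, Tnfrsf18 514 and 370 CPM in Lilrb4a/Ccl5, and Cd27 436 and 513 CPM in Sostdc1/Il4, in CD25KO and CD25WT.

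Within clusters the libraries were set side by side in the 10 clusters with at least 100 cells in each. The interval of the log2 ratio lay wholly above 0 for 5 of 7 members in Ccl1/Egr2 and in S100a4/Rora, for 4 in Lilrb4a/Ccl5 and for 3 in Ifit3/Ifit1. In the other clusters it did so for 2 members in 1 cluster, for 1 member in 3 clusters and for 0 in 2 clusters. Over the 70 pairs of a member and a cluster, 22 intervals lay wholly above 0 and 7 wholly below. Intervals above 0 were found for 23% of all genes with at least 10 CPM in Ccl1/Egr2, 11.3% in S100a4/Rora, 5.89% in Lilrb4a/Ccl5 and 17.1% in Ifit3/Ifit1. Over all 10 clusters, 11.1% of the gene-by-cluster ratios of those genes had such an interval and 5.41% one wholly below 0. Whether an interval excludes 0 depends on the number of UMIs, and these genes were not matched to the members by level. The 70 pairs also include pairs under 10 CPM, in Ly6c1/Igfbp4 and Gbp2b/Prg4, which these shares leave out. The median log2 ratio of all genes within a cluster was −0.01 to 0.13.

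By its interval, Tnfrsf4 was higher in CD25KO in 6 of the 10 clusters and lower in 1, which was central-like. In Lilrb4a/Ccl5 the log2 ratio was 0.88 (0.68 to 1.09), in Ccl1/Egr2 0.81 (0.72 to 0.89), in S100a4/Rora 0.73 (0.53 to 0.92), in Ifit3/Ifit1 0.54 (0.26 to 0.82), in Sostdc1/Il4 0.39 (0.20 to 0.58) and in Naip5/Ttn 0.23 (0.03 to 0.43). The central-like cluster Ly6c1/Igfbp4 had 55.2 CPM in CD25KO and 66.2 CPM in CD25WT, with an interval that held 0. Capn3/H2-Oa, at 176 and 179 CPM in CD25KO and CD25WT, showed no difference beyond counting error, with an interval of −0.21 to 0.18. The sign in central-like cells rests on the clusters: with cells assigned to states by their marker UMIs alone, the log2 ratio of Tnfrsf4 in central-like cells was 0.67, against −0.56 over the 2 central-like clusters.

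Tnfrsf18 was higher in CD25KO in 3 clusters, by 0.51 (0.38 to 0.64) in Ccl1/Egr2, 0.47 (0.27 to 0.68) in Lilrb4a/Ccl5 and 0.23 (0.06 to 0.41) in S100a4/Rora on the log2 scale. In Ly6c1/Igfbp4 it was lower, at 76.5 CPM in CD25KO and 106 CPM in CD25WT, a log2 ratio of −0.47 (−0.80 to −0.15). Here too cells called central-like by marker UMIs alone gave the other sign, 0.22. Over the 10 clusters its log2 ratios had a median of −0.06. Tnfrsf1b was higher in 3 clusters and lower in none, with log2 ratios of 0.86 (0.18 to 1.56) in Ifit3/Ifit1, 0.76 (0.49 to 1.04) in Ccl1/Egr2 and 0.55 (0.10 to 1.02) in S100a4/Rora.

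Tnfrsf9 was split. It was higher in CD25KO in S100a4/Rora, at a log2 ratio of 0.76 (0.04 to 1.54), and in Lilrb4a/Ccl5, at 0.48 (0.05 to 0.95), and lower in Capn3/H2-Oa, at −0.58 (−1.03 to −0.12), and in Sostdc1/Il4, at −0.43 (−0.84 to −0.01). In its highest cluster, Ccl1/Egr2, the interval of −0.27 to 0.01 held 0, in contrast to Tnfrsf4 in the same cells.

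Cd27 was higher in CD25KO in both central-like clusters, by 0.36 (0.19 to 0.52) on the log2 scale in Ly6c1/Igfbp4. It was lower in Sostdc1/Il4, where the ratio was −0.23 (−0.38 to −0.09), in Lilrb4a/Ccl5 at −0.21 (−0.40 to −0.01) and in Naip5/Ttn at −0.17 (−0.32 to −0.01). Cd27 and Tnfrsf4 thus took opposite signs in Lilrb4a/Ccl5, Sostdc1/Il4 and Naip5/Ttn, each with intervals on 1 side of 0. The summed B-cell markers were highest in Sostdc1/Il4, and their part in the values of that cluster was not tested.

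Traf1 was higher in CD25KO in 4 clusters and lower in none by interval: 0.68 (0.42 to 0.95) in Ifit3/Ifit1, 0.67 (0.50 to 0.84) in Ccl1/Egr2, 0.37 (0.07 to 0.68) in Lilrb4a/Ccl5 and 0.36 (0.08 to 0.64) in Ly6c1/Igfbp4 on the log2 scale. Fas was higher in Ccl1/Egr2, at 90.7 CPM in CD25KO and 65.9 CPM in CD25WT (log2 ratio 0.46, 0.22 to 0.71), and in S100a4/Rora (0.44, 0.10 to 0.79). Its sign in recently stimulated-like cells turned, to −0.15, with states from marker UMIs alone. At least 1.5-fold higher in Ccl1/Egr2 were 3 of 7 members, Tnfrsf4, Tnfrsf1b and Traf1, beside 8.81% of the 7147 genes compared there. This was the highest count of the 10 clusters. Among members that averaged 10 CPM or more, it was 2 in S100a4/Rora and Ifit3/Ifit1 and 1 in Ly6c1/Igfbp4 and Lilrb4a/Ccl5. In the remaining clusters it was 0, beside 5.6% to 13.4% of genes.

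**Figure D3:**
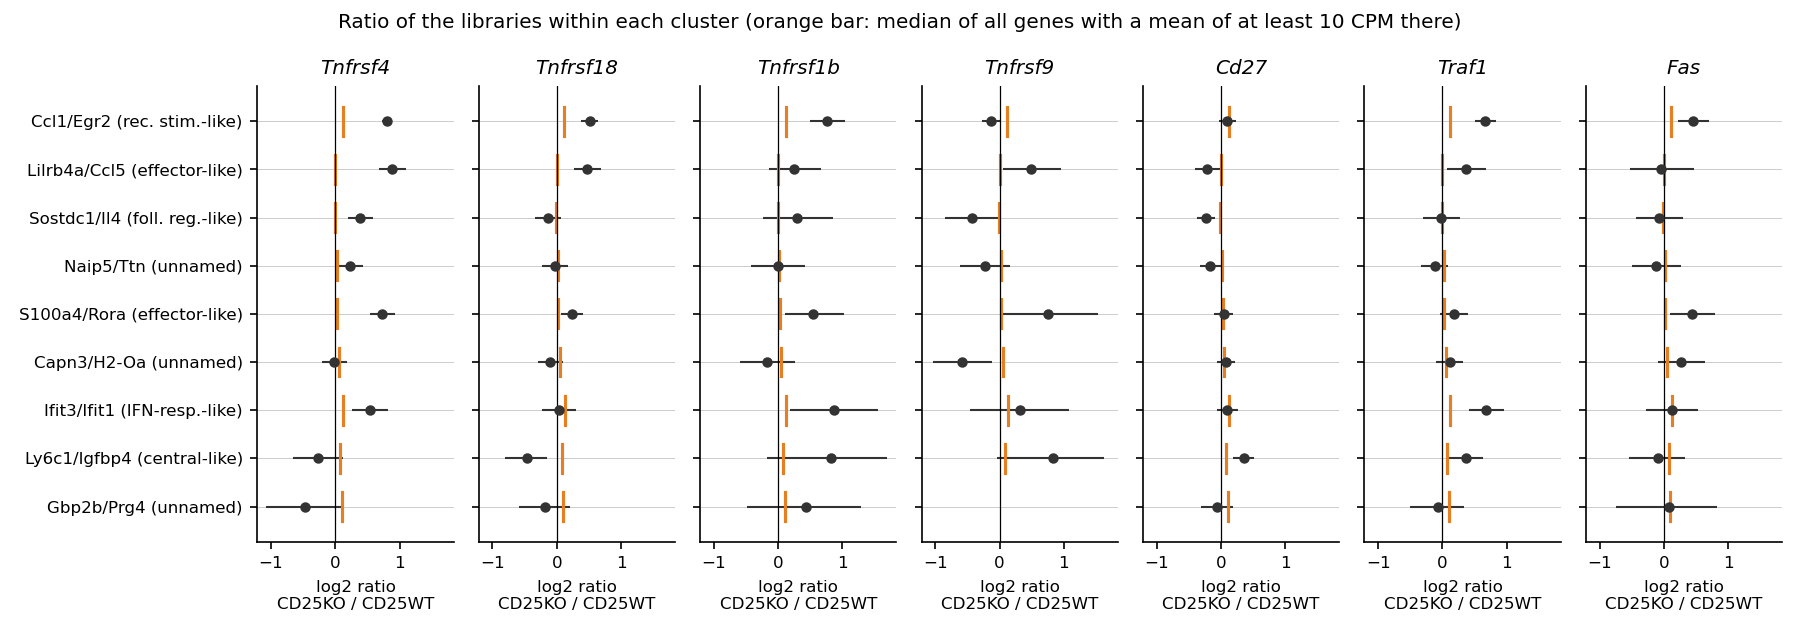
Log2 ratio of CD25KO over CD25WT within 9 of the 10 clusters with at least 100 cells in both libraries (points with exact 95% counting intervals; orange bar, median of all genes with at least 10 CPM there). Tnfrsf4 lies at 0.88 in Lilrb4a/Ccl5 and −0.26 in Ly6c1/Igfbp4, with an interval that holds 0 there, and Cd27 at −0.23 in Sostdc1/Il4 and 0.36 in Ly6c1/Igfbp4; Tnfrsf9 in Gbp2b/Prg4 has no point because it was counted at 0 and 1 UMI in CD25KO and CD25WT.

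The libraries held the clusters in unequal numbers, 1232 CD25KO and 138 CD25WT cells of Lilrb4a/Ccl5 against 272 CD25KO and 1745 CD25WT cells of Ly6c1/Igfbp4, and the genes that define the clusters can themselves differ between libraries. Each gene's level was therefore also computed with 1 mix of clusters given to both libraries, as the CPM of each cluster weighted by its share of cells. As found, the cell-weighted log2 ratio was 1.30 for Tnfrsf4, and with the mix of CD25KO in both it was 0.62, with the mix of CD25WT in both 0.40. For Tnfrsf18 it was 0.75 as found, 0.24 with the CD25KO mix and −0.02 with the CD25WT mix. Tnfrsf1b stood at 1.31 as found, 0.29 with the CD25KO mix and 0.30 with the CD25WT mix.

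Tnfrsf9 stood at 0.95 as found and at 0.05 with the CD25KO mix and 0.24 with the CD25WT mix. The ratios under a shared mix carry no interval. The CD25WT mix gives 8.87% of the weight to Lrrc32/Gsta4, where CD25KO had 40 cells, under the minimum of 50. There the CD25KO levels rest on 15 Tnfrsf9 and 51 Tnfrsf4 UMIs and lie above those of CD25WT. The part of that cluster in the ratios was not tested. For each member but Cd27, Tnfrsf4 included, the log2 ratio kept under either mix was smaller than the part that was lost. With an equal mix no member (CD25WT mix) or 1 member, Tnfrsf4 (CD25KO mix), stayed past 1.5-fold, beside 2.37% and 2.1% of genes. Traf1 was at 0.57 as found, 0.25 with the CD25KO mix and 0.26 with the CD25WT mix. Fas stood at 0.35 as found, 0.16 with the CD25KO mix and 0.13 with the CD25WT mix, and Cd27 at 0.17, −0.03 and 0.15. Conversely, the levels measured in CD25WT clusters, weighted by the CD25KO mix and set over the same levels weighted by the CD25WT mix, gave 1.02 for Tnfrsf1b, 0.90 for Tnfrsf9, 0.68 for Tnfrsf4 and 0.51 for Tnfrsf18.

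**Figure D4:**
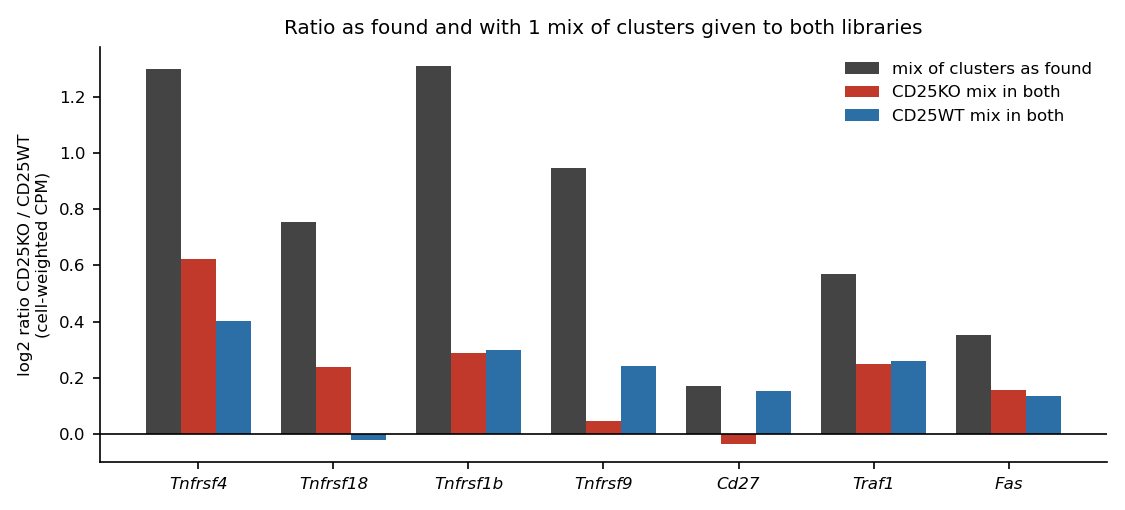
Log2 ratio of CD25KO over CD25WT of each gene's cluster CPM weighted by the clusters' shares of cells. It is given as found (grey), with the CD25KO mix of clusters in both libraries (red) and with the CD25WT mix in both (blue). With the CD25KO and the CD25WT mix, Tnfrsf4 keeps 0.62 and 0.40 of 1.30, Tnfrsf9 0.05 and 0.24 of 0.95 and Tnfrsf18 0.24 and −0.02 of 0.75; Cd27 changes sign between the mixes, at −0.03 and 0.15.

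A minority of cells carried much of the Tnfrsf4 signal. In CD25KO, 742 cells (10.7%) had at least 5 Tnfrsf4 UMIs and held 57.0% of the gene's UMIs, with up to 85 in 1 cell. In CD25WT, 222 cells (3.63%) had at least 5 and held 33.8%, with up to 28 in 1 cell. Of the 792 CD25KO cells in Ccl1/Egr2 40.0% were such cells, against 30.5% of the 406 CD25WT cells there. In Lilrb4a/Ccl5 they were 17.0% of the CD25KO cells and 6.52% of the CD25WT cells. The cycling-like cluster also held many, 19.4% of CD25KO and 18.2% of CD25WT cells, but its cells were deep, with medians of 14887 UMIs in CD25KO and 18110 UMIs in CD25WT.

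Tnfrsf9 showed the same kind of concentration at lower counts. At least 5 UMIs were found in 94 CD25KO cells and 53 CD25WT cells, of which 53 and 42 lay in Ccl1/Egr2. By contrast, Cd27 UMIs were spread: cells with at least 5 made up 4.66% in CD25KO and 4.73% in CD25WT and held 18.9% and 17.9% of its UMIs.

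Shares of cells with a UMI were compared after thinning each cell to 2000 UMIs, which left out 375 CD25KO and 90 CD25WT cells. Tnfrsf4 was detected in 36.8% of CD25KO cells and 20.8% of CD25WT cells, and before thinning in 53.5% and 39.5%. Tnfrsf18 was detected in 34.5% of CD25KO and 24.3% of CD25WT cells, Tnfrsf1b in 10.4% and 4.34%, Tnfrsf9 in 8.71% and 5.45%, Traf1 in 26.1% and 18.8%, Cd27 in 43.8% and 41.5%, and Fas in 11.0% and 9.17%. As a measure of free RNA, cells of the other lineages without any Treg identity UMI, 32 in CD25KO and 37 in CD25WT, had a Tnfrsf4 UMI in 6.25% and 2.70%. These cells were chosen for a lack of Treg RNA, which can lower the share. Of all cells in the other-lineage clusters, 74 in CD25KO and 81 in CD25WT, 27.0% and 12.3% had a Tnfrsf4 UMI. The myeloid cluster among them had the T-cell gene Cd3e at 987 CPM and Foxp3 at 29.3 CPM, within the range of the T-cell clusters. The B-cell and erythroid cluster had Cd3e at 176 CPM and Foxp3 at 8.26 CPM. All cells of these clusters are therefore not a measure of free RNA alone, and the part of T-cell RNA in this background was not tested. Cd27 had no UMI in the cells without a Treg identity UMI, which allows a share of up to 9.38% in CD25KO and 8.11% in CD25WT. Among all cells in the other-lineage clusters, 17.6% in CD25KO and 11.1% in CD25WT had a Cd27 UMI. The shares of Tnfrsf18 and Cd27 lay above the interval of both backgrounds in both libraries. The Tnfrsf4 shares lay above the first background in both libraries, but their intervals met that of all other-lineage cells, which reached 38.6% in CD25KO and 21.5% in CD25WT. The Traf1 share lay above the first background in CD25KO and above neither in CD25WT. The shares of Tnfrsf9 and Fas in both libraries and of Tnfrsf1b in CD25WT lay above neither, and that of Tnfrsf1b in CD25KO only above all other-lineage cells, so at this depth they cannot be set apart from background by these few cells.

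Detection of 1 member mostly went with detection of others. Of the 42 ordered pairs of members, the share of a gene was higher in cells with the other in 40 in CD25KO and 40 in CD25WT, with intervals apart in 28 and 18. Each pair is counted in both directions. Pairs of other genes were not counted, so it cannot be told whether these numbers are particular to the members. The exceptions were Fas with Tnfrsf18 in CD25KO, where Fas was found in 10.7% of cells with and 11.2% without Tnfrsf18, and Fas with Cd27 in CD25WT, at 8.68% with and 9.65% without Cd27. Of thinned T cells with a Tnfrsf4 UMI, 15.1% in CD25KO and 12.7% in CD25WT also had Tnfrsf9, and of those without one, 4.97% in CD25KO and 3.54% in CD25WT. Tnfrsf18 was found in 46.1% of CD25KO cells with Tnfrsf4 and 28.0% of those without, and in 34.5% and 21.9% of CD25WT cells with and without it. For Cd27 the shares barely differed, 45.8% with and 43.1% without Tnfrsf4 in CD25KO, and 43.9% and 41.4% in CD25WT. Within single clusters the shares lay closer in some and not in others. In Ccl1/Egr2, Tnfrsf9 was found in 25.4% of CD25KO cells with Tnfrsf4 and 21% without, and in 37.9% and 31.2% of CD25WT cells. In Lilrb4a/Ccl5, Tnfrsf9 was found in 19.1% of CD25KO cells with Tnfrsf4 and 8.21% without, with intervals apart. The CD25WT shares there were 18.3% (11 of 60 cells) and 6.58% (5 of 76 cells), with intervals that overlapped.

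Counting all 7 genes, 26.0% of thinned CD25KO T cells and 11.9% of CD25WT T cells had a UMI of 3 or more members, and 17.0% and 25.8% had none. The share with 3 or more was highest in Lilrb4a/Ccl5, at 47.5% in CD25KO and 37.5% in CD25WT, and in Ccl1/Egr2, at 45.7% and 36.5%. In the central-like Ly6c1/Igfbp4 cluster it was 5.0% in CD25KO and 5.08% in CD25WT.

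**Figure D5:**
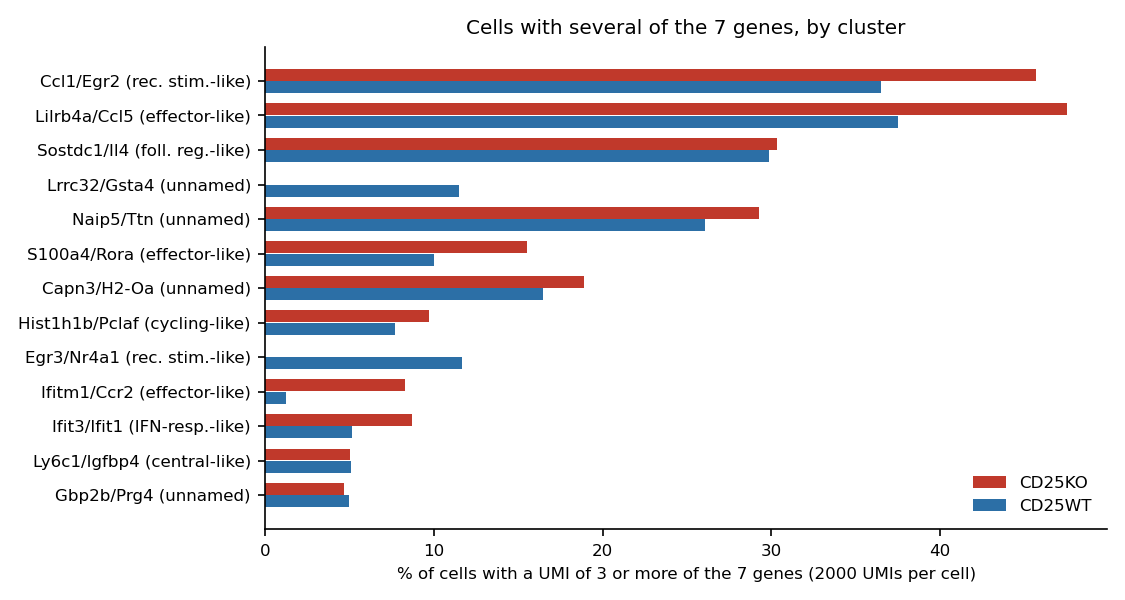
Share of cells, thinned to 2000 UMIs each, with a UMI of 3 or more of the 7 genes in 13 of the 14 T-cell clusters, for CD25KO (red, above) and CD25WT (blue, below); a library with under 50 cells has no bar. Lilrb4a/Ccl5 (47.5% and 37.5%) and Ccl1/Egr2 (45.7% and 36.5%) stand above the other clusters, and Ly6c1/Igfbp4 (5.0% and 5.08%) is alike in the libraries.

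Over the 26 profiles of a library in a cluster (12 of CD25KO, 14 of CD25WT), levels on the log2(CPM + 5) scale went together most for Tnfrsf4 and Tnfrsf9, with a Pearson correlation of 0.93, for Tnfrsf4 and Tnfrsf18 at 0.90 and for Tnfrsf18 and Tnfrsf1b at 0.88. Cd27 stood apart, with correlations of 0.24 to 0.67 with the other members. The profiles share libraries and clusters and differ in depth: Cd27 correlated with the log depth of the profile at −0.76 and Traf1 at −0.59, against −0.11 for Tnfrsf4, and the part of depth in these values was not tested. The genes most like Tnfrsf4 by this measure were Pdcd1lg2 at 0.96, Cd83 at 0.91 and Gimap5 at 0.90. Those most like Tnfrsf9 were Cd81 at 0.93, Pdcd1lg2 at 0.92 and Cd83 at 0.90. Pdcd1lg2 and Cd83 are among the 10 leading genes of Ccl1/Egr2 and, unlike the members, were not kept out of the clustering. The part of this in their correlations was not tested. Tnfrsf18 was most like Samsn1 at 0.94, Itm2c at 0.89 and Gimap5 at 0.86, and Tnfrsf1b most like Kif13b at 0.90, Sdf4 at 0.89 and Nfatc1 at 0.88. Cd27 was most like Gimap6 at 0.95, Gimap3 at 0.93 and Tmem230 at 0.91, Traf1 most like Ier5 at 0.89, Zfp36l1 at 0.87 and Notch1 at 0.84, and Fas most like Tank at 0.84, Jade2 at 0.84 and Zfp266 at 0.82.

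The rest of the pathway is given by list, for genes that averaged 5 CPM or more. Over all 8743 such genes 12% were past 1.5-fold on the higher side in CD25KO and 1.96% on the lower side, or 6.87% and 3.98% with TMM factors, and the median log2 ratio was 0.21. Of the 22 other receptors of the superfamily, 6 reached 5 CPM, none was past 1.5-fold in either direction, and their median log2 ratio was 0.06, which TMM factors turn to −0.17 with 1 gene, Relt, past 1.5-fold on the lower side. Tnfrsf26 was at 0.49 (0.32 to 0.66), Relt at −0.44 (−0.66 to −0.22), Tnfrsf1a, the TNF receptor with a death domain, at −0.33 (−0.53 to −0.13), and Tnfrsf13b (TACI) at 0.08 (−0.04 to 0.19). The TNF receptors thus lay on opposite sides of 0, Tnfrsf1b at 1.25 and Tnfrsf1a at −0.33, under TMM scaling too.

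Of the 17 ligands of the superfamily, 9 reached 5 CPM, 4 lay past 1.5-fold on the higher side in CD25KO and 1 on the lower, with a median log2 ratio of 0.56; with TMM factors 3 were higher and 1 lower. Tnfsf9, the ligand of Tnfrsf9, had 10.6 CPM in CD25KO and 4.91 CPM in CD25WT (log2 ratio 1.10, 0.84 to 1.37). Tnfsf11 (RANKL) was at 1.08 (0.93 to 1.22) and Tnfsf14 (LIGHT) at 0.91 (0.68 to 1.15). Lta, which encodes lymphotoxin alpha, was lower, at 13.7 CPM in CD25KO and 22.4 CPM in CD25WT (−0.71, −0.88 to −0.55). Tnf, a ligand of Tnfrsf1b, had 21.3 CPM in CD25KO and 18.9 CPM in CD25WT, a log2 ratio of 0.17 (0.02 to 0.32), smaller than the TMM shift of 0.22. The ligands of Tnfrsf4, Tnfrsf18, Cd27 and Fas were under 5 CPM: Tnfsf4 had 26 UMIs in CD25KO and 15 in CD25WT, Tnfsf18 had 2 and 1, Cd70 had 55 and 15, and Fasl had 156 and 162.

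All 15 adaptors and proximal enzymes reached 5 CPM and none was past 1.5-fold in either direction, with a median log2 ratio of 0.17 that turns to −0.06 with TMM factors. The largest was Tank, a TRAF-binding regulator, at 0.48 (0.41 to 0.55), then Birc2 (cIAP1) at 0.43 (0.35 to 0.51), Traf3, which holds the non-canonical NF-kB kinase in check, at 0.40 (0.27 to 0.54), and Cflar, an inhibitor of caspase-8 activation, at 0.38 (0.31 to 0.44). Of the 8 NF-kB subunits and kinases, 2 were at least 1.5-fold higher, also with TMM factors, the non-canonical subunits Nfkb2, at 0.89 (0.76 to 1.02), and Relb, at 0.86 (0.75 to 0.98). The canonical subunits Nfkb1 and Rel were at 0.45 (0.39 to 0.51) and 0.38 (0.30 to 0.46), and the list had a median of 0.37.

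Of the 11 NF-kB inhibitors and feedback genes, 5 lay past 1.5-fold on the higher side in CD25KO and 0 on the lower, with a median log2 ratio of 0.52; with TMM factors 2 stayed past 1.5-fold, Bcl2a1b and Icam1. Bcl2a1b, of a family of near-identical copies whose reads the counting could split, was at 1.33 (1.28 to 1.38). Icam1, an adhesion molecule gene known as an NF-kB target, was at 0.94 (0.81 to 1.07), Nfkbie at 0.66 (0.50 to 0.82) and Nfkbid at 0.62 (0.49 to 0.75).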

How the data were processed

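Both libraries were deposited as filtered matrices of UMI counts per gene and barcode, which the authors made with Cell Ranger 6.0.0 on mm10, per the submitters' processing notes and the file headers. The gene annotation and strand setting of the counting are not given in the sources used here. Positions come from GENCODE M21.

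Cells were kept by the thresholds given above. Counts were summed per library, and per library and cluster, and divided by the summed total to give CPM. Levels carry exact Poisson intervals, ratios exact conditional intervals and shares Clopper-Pearson intervals, all at 95% and all covering counting error only. With 1 library per group no test was made, and cells were not used as replicates. Clustering used Scanpy 1.11.5 (2000 variable genes, 30 components, 15 neighbours, Leiden resolution 1, leidenalg 0.10.2) on counts per 10000, without the 7 genes, the pathway lists, Il2ra, antigen receptor segments, haemoglobins, Y-linked genes and Xist, and mitochondrial and ribosomal protein genes. A cluster got a state name where at least 2 of its 10 leading genes were that state's markers. At least 3 markers of the state had to be detected, with a mean log2 fold of at least 0.25. The rule was set after the clusters were seen. Scrublet called 0 doublets in CD25KO and 1 in CD25WT, beside 419 and 324 expected from the numbers of barcodes. The reason for so few calls was not tested, and no doublets were removed. TMM factors came from edgeR 4.0.16, used for scaling only.

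Members and lists were chosen with earlier results of these data known. The genes named are the 7 members, Il2ra, Foxp3, up to 4 genes of each pathway list with the largest absolute log2 ratio at a mean of at least 5 CPM, and the 3 genes most like each member with a mean of at least 20 CPM. Other ligands of the members, Ikzf2, Ctla4, Gpr83, Izumo1r and Cd3e were named besides, after their values were seen. The interval and thinning steps were tested on simulated data. The values of 1 central-like cluster and of 1 B-cell marker are not reported here; both stayed in the clustering, sums and counts.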

Additional observations from a re-analysis of the deposited data

Results flagged for a closer look

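For 4 members the counting interval of the log2 ratio of CD25KO over CD25WT lay above 0 in some clusters and below 0 in others. With 1 library per group the difference between clusters was not tested, and the intervals cover counting error only.

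Tnfrsf4 was higher in CD25KO in Lilrb4a/Ccl5 (0.88), Ccl1/Egr2 (0.81), S100a4/Rora (0.73), Ifit3/Ifit1 (0.54), Sostdc1/Il4 (0.39) and Naip5/Ttn (0.23), and lower in 1 central-like cluster. Tnfrsf18 was higher in Ccl1/Egr2 (0.51), Lilrb4a/Ccl5 (0.47) and S100a4/Rora (0.23), and lower in Ly6c1/Igfbp4 (−0.47). The clusters in which these receptors were lower in CD25KO were both central-like, and states from marker UMIs alone did not give that sign.

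Tnfrsf9 was higher in S100a4/Rora (0.76) and Lilrb4a/Ccl5 (0.48), and lower in Capn3/H2-Oa (−0.58) and Sostdc1/Il4 (−0.43). Cd27 was higher in Ly6c1/Igfbp4 (0.36), and lower in Sostdc1/Il4 (−0.23), Lilrb4a/Ccl5 (−0.21) and Naip5/Ttn (−0.17). Most of the Cd27 values, and the 0.23 of Tnfrsf4 in Naip5/Ttn and of Tnfrsf18 in S100a4/Rora, are near in size to the shift that scaling alone gives to the whole libraries, 0.22.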

How the results depend on the processing

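No paired analysis was possible because each genotype is 1 pooled library, and for the same reason no replicate could be left out. Of 98 member ratios under the alternatives, 47 stayed within the counting interval of the value given above, 45 moved outside it with the same sign and 6 changed sign; the 42 shares of cells under other depths all moved. Cd27 changed sign, to −0.13 with TMM factors, −0.13 with median-of-ratios factors, −0.095 with a total that leaves out mitochondrial and ribosomal protein genes, −0.034 with the CD25KO mix and −0.026 with a stricter cell filter. Tnfrsf18 changed sign with the CD25WT mix, at −0.021. With states from marker UMIs alone, which placed 79.0% of CD25KO and 88.3% of CD25WT cells, the ratio became 0.67 for Tnfrsf4 and 0.22 for Tnfrsf18 in central-like cells and −0.15 for Fas in recently stimulated-like cells; 2548 CD25KO and 1240 CD25WT cells lay within 1 marker of the cut. The causes of these changes were not tested. The CD25KO mix and the removal of barcodes found in both libraries were chosen after seeing the data, and leaving out those barcodes moved no member ratio outside its interval.

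Members at least 1.5-fold higher numbered 2 with TMM factors, 2 with median-of-ratios factors, 1 with the CD25KO mix and 0 with the CD25WT mix, against 4 as given. Genes at least 1.5-fold higher numbered 396 and 397 with TMM and median-of-ratios factors, 1265 in cells with a Foxp3 UMI, 3820 without a minimum CPM, 153 with the CD25KO mix and 164 with the CD25WT mix, against 741. Genes at least 1.5-fold lower numbered 241 and 240 with those factors, 292 with that reduced total, 174 in cells with a Foxp3 UMI, 171 at a minimum of 5 CPM, 1473 without a minimum, 49 with the CD25KO mix and 57 with the CD25WT mix, against 107. Genes at least 2-fold higher numbered 149 and 149 with those factors, 436 in cells with a Foxp3 UMI, 382 at 5 CPM, 1992 without a minimum, 39 with the CD25KO mix and 28 with the CD25WT mix, against 247. Genes at least 2-fold lower numbered 66 and 66 with those factors, 86 with that reduced total, 68 in cells with a Foxp3 UMI, 67 at 5 CPM, 955 without a minimum, 16 with the CD25KO mix and 13 with the CD25WT mix, against 41.

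The median log2 ratio of the 7 members was 0.48 with TMM and 0.48 with median-of-ratios factors, 0.52 with that reduced total, 1.03 in cells with a Foxp3 UMI, 0.78 with equal weight per cell and 0.24 with either mix. That of the other receptors was −0.17 and −0.17 with the factors, −0.13 with that total, −0.23 in cells with a Foxp3 UMI and −0.092 with the CD25WT mix. That of the ligands was 0.34 and 0.34 with the factors, 0.37 with that total, 0.46 in cells with a Foxp3 UMI, 0.50 at 10 CPM, 0.78 without a minimum, 0.13 with the CD25KO mix and 0.18 with the CD25WT mix. That of the adaptors was −0.055 and −0.054 with the factors, −0.022 with that total and 0.33 in cells with a Foxp3 UMI. That of the NF-kB subunits was 0.15 and 0.15 with the factors, 0.18 with that total, 0.46 with equal weight per cell, 0.49 after thinning and 0.18 with the CD25KO mix. That of the inhibitors and feedback genes was 0.30 and 0.30 with the factors, 0.33 with that total, 0.47 against CD25WT cells without an Il2ra UMI, 0.63 in cells with a Foxp3 UMI, 0.29 with the CD25KO mix and 0.18 with the CD25WT mix. Depth limits the smaller clusters most, such as Gbp2b/Prg4 with 157 CD25KO cells.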
